A study of Homo sapiens with 4 samples.

Results

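The genes described here are the heat shock proteins and chaperonins of human cells with their main partners: the Hsp90 proteins and their adaptor STIP1, the Hsp70 and Hsp110 proteins (HSPA and HSPH1), the J-domain proteins (DNAJA, DNAJB and DNAJC), the small heat shock proteins (HSPB), the subunits of the cytosolic chaperonin (CCT), the mitochondrial chaperonin HSPD1 with its lid HSPE1, the BAG co-chaperones and the heat shock factors (HSF). They were chosen by gene symbol, with the chaperones of the secretory pathway HSPA5, DNAJB9, DNAJB11, DNAJC3 and DNAJC10 left out, and 76 of the 17716 genes on the arrays were members. Most act in the cytosol, but HSPA9, HSPD1, HSPE1, DNAJA3, DNAJC11, DNAJC15, DNAJC19 and DNAJC30 are mitochondrial and some, such as HSPA13 and DNAJC1, belong to the endoplasmic reticulum. A further 9 probe sets that the annotation assigns to several symbols, among them those of HSPA8, TCP1, HSPA1A with HSPA1B, and DNAJB6, were not counted as members or tested.

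RNA came from Hs683, an established human glioma line, in which QK, a regulator of RNA splicing and stability now named QKI, had been knocked down. The cells of both groups were transduced, 1 group with miR-20a and the other with miR-NT, a scrambled microRNA meant to have no target. Each group had 2 Affymetrix arrays, all 4 arrays shared the knockdown, and no array without it was analysed here, so every difference below is between 2 kinds of QK-knockdown cells of 1 line. The comparison addresses which transcripts differ between cells transduced with miR-20a and cells transduced with miR-NT. The labels do not say whether replicates were separate cultures, and a p-value here speaks of the scatter among 4 arrays alone, which may be technical.

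Chaperones bind unfolded protein and release it in cycles driven by ATP. In the cytosol a J-domain protein hands a client to Hsp70, a nucleotide exchange factor (an Hsp110 or a BAG protein) resets Hsp70, and STIP1 passes the client on to Hsp90, which completes the folding of kinases and receptors. The chaperonin is a closed barrel that folds actin and tubulin, and HSF1 is the transcription factor that switches many of these genes on under heat or proteotoxic stress. Glioma cells, like many tumour cells, are known to depend on Hsp90 for the stability of growth-signalling kinases.

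RefSeq's mature miR-20a-5p is shown first because miR-20a is the agent under study. The labels name miR-20a alone, without the strand or the construct used. RefSeq places hsa-miR-20a-5p at chr13:91351072-91351094 on the plus strand of GRCh38.p14, and the capitals mark its seed, bases 2 to 8, through which a microRNA pairs with its targets.
hsa-miR-20a-5p: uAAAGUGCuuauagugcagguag

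Values are log2 signals per probe set, so that a difference of 1 is a 2-fold difference, and the fold changes below are miR-20a minus miR-NT. For each gene the probe set with the highest mean was used, and the dimmest 30% of genes, those with a mean signal under about 5.46, were not tested. This left 61 of the 76 members among 12401 tested genes. In RNA from whole cultures, fewer cells with a transcript and less of it per cell cannot be told apart.

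The glial and glioma markers were partly dim: VIM measured 14.02 to 14.32, CD44 10.08 to 11.24 and EGFR 9.08 to 10.27, while GFAP, NES, S100B, OLIG1, OLIG2 and TNC lay below the level needed for testing. Of the 6 tested, CD44 (log2 fold change -0.87) was lower on both miR-20a arrays. EGFR (0.70), PDGFRA (0.37) and CSPG4 (0.36) were higher on both. These 4 had an unadjusted p under 0.05 in limma, and none passed over all genes. VIM was lower on both (-0.19), and SOX2 overlapped (-0.12). Among markers of other cell types, PTPRC of leukocytes (3.98 to 4.42), EPCAM of epithelia (4.08 to 4.37) and CDH5 of endothelium (4.18 to 4.49) were dim on every array. Of 17 such markers of leukocytes, epithelia, endothelium and neurons 7 were bright enough to test, and none passed over all genes in limma. PECAM1 of endothelium (0.30), RBFOX3 of neurons (0.32) and CD3E of T cells (0.28) were higher on both miR-20a arrays, each at an unadjusted p under 0.05, SNAP25 of neurons was lower on both (-0.21), and KRT8, KRT18 and SYT1 overlapped. The summed signal of the 4 leukocyte markers was 7.97 to 8.01 with miR-NT and 8.14 to 8.23 with miR-20a on a log2 scale, with CD3E the brightest of them and PTPRC lower on both miR-20a arrays. Signals of the control probe sets for the 5' ends of ACTB and GAPDH transcripts differed too. Whether this reflects RNA quality or transcript level was not tested. The ACTB control differed by -1.71 between the groups (miR-20a minus miR-NT) and by -1.16 between miR-20a replicate 2 and replicate 1, and the GAPDH control by -1.11 and -0.87. These differences moved with several results below, and their part in those results was not tested. A fit with the ACTB control as a covariate is given below. The ACTB control differed by only -0.11 within the miR-NT pair, so that fit takes its slope almost wholly from the miR-20a pair. Its values extend the difference within that pair across the groups, and so cannot show the control's part.

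No member passed the limma test over all genes at an adjusted p under 0.05, where 0.00806% of the tested genes passed in either direction. At an unadjusted p under 0.05 in limma 10 members (16.4%) were lower and 1 (1.64%) was higher with miR-20a, beside 13.2% and 5.82% of all tested genes. Among the 61 members 41 fold changes were negative and 20 positive. The negative share was 67.2%, beside 53.8% of all tested genes, and the median was -0.11, beside -0.02. After quantile normalization the split was 34 negative and 27 positive, and with the ACTB control as a covariate it turned to 21 negative and 40 positive. The miR-20a pair lay wholly under the miR-NT pair in 27 members (44.3%, against 31.1% of all tested genes) and wholly over it in 9 (14.8%, against 25.1%). Of the 61, 46 (75.4%) were within 0.25 of 0, as were 78.5% of all genes, and 5 members (8.2%) were below -0.5 where 3.81% of all genes were. Those 5 were HSP90AB1, STIP1, BAG2, HSPD1 and DNAJB4, of which HSP90AB1 and STIP1 were lower by 2-fold or more, as were 0.532% of all tested genes. With 1 array left out, a fit takes the spread of the lone array's group from the other group. Dropping miR-20a replicate 1 gave 13 members called lower (21.3%, beside 12.6% of all tested genes) and 1 called higher, HSPB6 (1.64%, beside 2.44%). Dropping miR-20a replicate 2 gave 5 called lower (8.2%, beside 1.86%) and 0 called higher, where 0.234% of all genes were. The members lower at an unadjusted p under 0.05 in limma were 21 (34.4%) without miR-20a replicate 1, where 20.5% of all genes were, and 6 (9.84%) without miR-NT replicate 1, where 4.43% were. Of 24 members beyond 0.2 in either direction, 17 came nearer to 0 by over 1.5 times in some such fit. For 11 of the 17, the fit that came nearest to 0 was the one without miR-20a replicate 2.

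**Figure D1:**
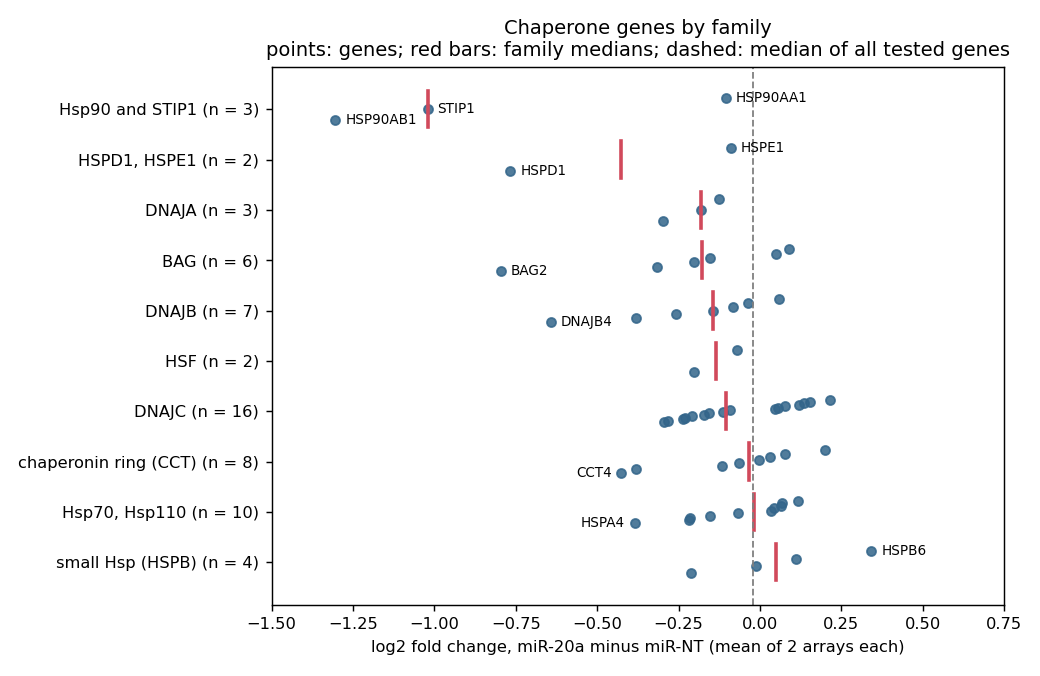
Log2 fold change (x axis, miR-20a minus miR-NT, mean of 2 arrays each) of the 61 tested chaperone genes by family, with red bars at the family medians and a dashed line at the median of all tested genes, -0.02. Most points lie within 0.25 of 0, and HSP90AB1, STIP1, BAG2, HSPD1 and DNAJB4 stand to the left.

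The Hsp90 group held the lowest values. HSP90AB1, the constitutive cytosolic Hsp90 (probe set 214359_s_at), measured 11.66 and 11.59 on the miR-NT arrays against 10.84 and 9.80 on the miR-20a arrays. Both miR-20a arrays were below both miR-NT arrays, and miR-20a replicate 2 was by far the lowest. The difference on the log2 scale was -1.30 (SE 0.28), a 2.47-fold lower signal, and missed the threshold (limma adjusted p = 0.111). Replicate 2 minus replicate 1 of miR-20a was -1.04 for HSP90AB1 and -1.16 for the ACTB control. Leaving out miR-20a replicate 2 gave -0.79 and leaving out replicate 1 gave -1.82. The estimate was 0.22 (SE 0.25, limma adjusted p = 0.972) once the ACTB control entered as a covariate, with a slope drawn almost wholly from the miR-20a pair.

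STIP1, the adaptor that holds Hsp70 and Hsp90 together while a client changes hands (212009_s_at), measured 8.45 and 8.31 on the miR-NT arrays against 7.57 and 7.15 on the miR-20a arrays. The groups were well apart, and the distance between them exceeded the spread within either. Its log2 fold change of -1.02 (SE 0.15), or 2.03-fold lower, ranked 25 by p among the 12401 genes and was the member nearest to the threshold (limma adjusted p = 0.0727). It passed after median centring (limma adjusted p = 0.0494) and with an intensity trend and robust prior (0.0491), and over all alternatives the adjusted p ran from 4.55e-08 to 0.878. The fold change was -0.39 once the ACTB control entered as a covariate and was negative in all 7 alternatives that can move a fold change. The other 5 (the filters, the prior, the mean of probe sets and the replicate block) leave it as it is by construction.

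HSP90AA1, the stress-inducible Hsp90 isoform (210211_s_at), measured 13.42 and 13.44 on the miR-NT arrays against 13.39 and 13.25 on the miR-20a arrays. Both miR-20a arrays were lower, though on average by less than they differed from each other, with a log2 fold change of -0.11 (SE 0.10, limma adjusted p = 0.553), and the sign turned after quantile normalization (0.02). The signal of HSP90AB1 minus that of HSP90AA1 on the same array was -1.76 and -1.84 under miR-NT, and -2.55 and -3.45 under miR-20a. This within-array difference did not overlap between the groups and shifted by -1.20. Its two-sided exact permutation p was 0.333, the smallest that this many arrays can give. The isoform pair was compared after the values were seen. Probe sets ending in _s_at can read more than 1 transcript, and the Hsp90 genes have closely related copies, so part of either signal may come from them.

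**Figure D2:**
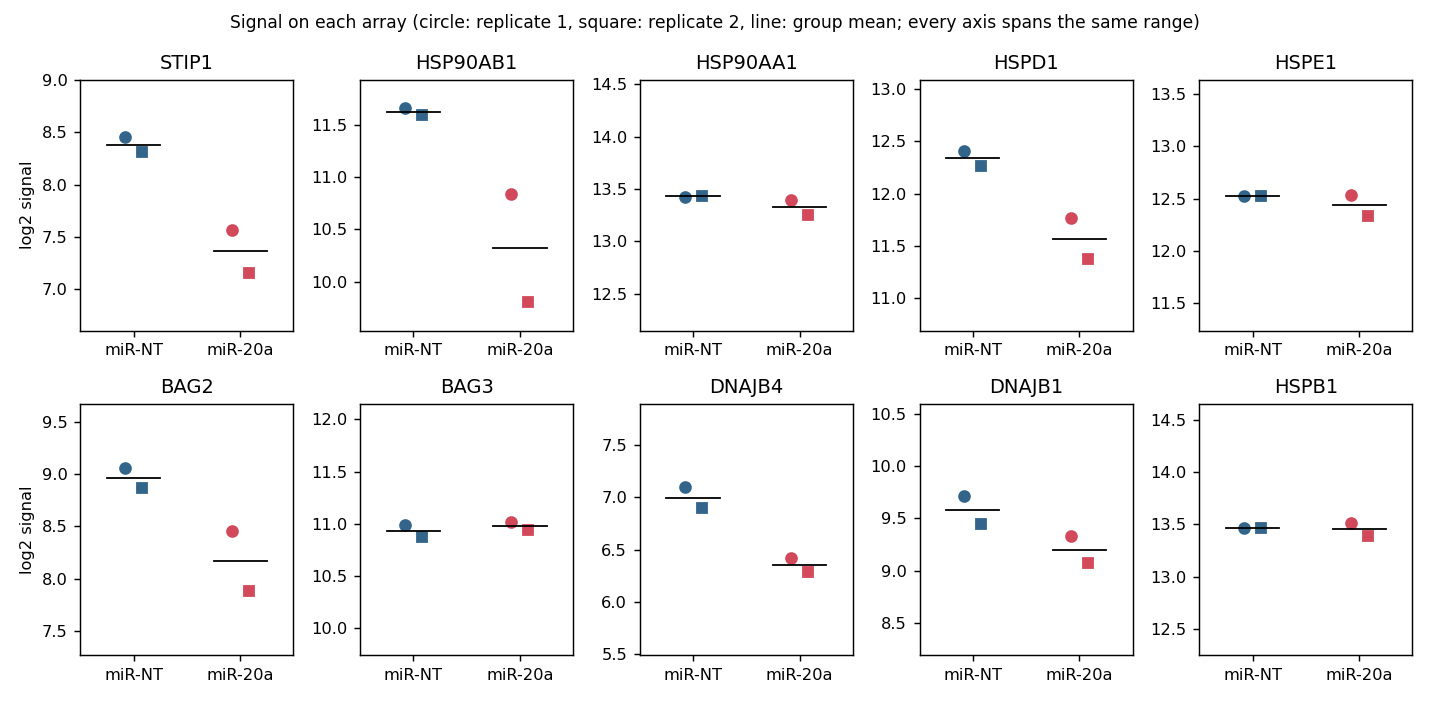
Log2 signal (y axis) of 10 chaperone genes on each of the 4 arrays, with circles for replicate 1, squares for replicate 2 and lines at the group means. STIP1, HSP90AB1, HSPD1, BAG2, DNAJB4 and DNAJB1 are lower on both miR-20a arrays than on either miR-NT array, while BAG3, HSPE1 and HSPB1 overlap between the groups.

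Other co-chaperones of Hsp90 were mostly below 0. Of 14 tested co-chaperones 10 were below 0 and 4 above, with a median of -0.16, and 5 (35.7%, beside 13.2% of all tested genes) were lower at an unadjusted p under 0.05 in limma while none passed over all genes. FKBP5, an immunophilin of steroid receptor complexes, measured 7.97 and 7.88 on the miR-NT arrays against 7.44 and 7.31 on the miR-20a arrays (log2 fold change -0.55, SE 0.10, limma adjusted p = 0.0963). PPP5C, a phosphatase bound to Hsp90, measured 7.9985 and 7.75 against 7.38 and 6.59 (log2 fold change -0.88, SE 0.23, limma adjusted p = 0.143). The remaining 3 at that unadjusted p were CDC37, which loads kinases onto Hsp90 (-0.49), the immunophilin PPID (-0.53) and its relative FKBP4 (-0.59). Without miR-20a replicate 2, the array with the weaker 5' controls, these were at -0.29, -0.28 and -0.23, PPP5C was at -0.49 and FKBP5 at -0.49. The ubiquitin ligase STUB1, which turns Hsp70 and Hsp90 clients toward degradation, was at 0.16 and PTGES3, the p23 protein that stabilises the closed form of Hsp90, at -0.21. Among the 7 tested partners of Hsp70, 5 were below 0 and 2 above, with a median of -0.05. The lowest was ST13, the Hsp70-interacting protein Hip, which measured 9.15 and 9.01 on the miR-NT arrays against 8.83 and 8.42 on the miR-20a arrays (log2 fold change -0.45, SE 0.15, limma adjusted p = 0.19, or -0.25 without miR-20a replicate 2), and next by p came the mitochondrial exchange factor GRPEL1 at -0.15.

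The tested Hsp70 and Hsp110 members were spread evenly about 0, a count without HSPA8, HSPA1A and HSPA1B. The untested probe set shared by HSPA8 and small nucleolar RNAs measured 13.67 and 13.56 on the miR-NT arrays against 13.04 and 12.22 on the miR-20a arrays. Those shared by HSPA1A and HSPA1B were slightly higher on both miR-20a arrays, at 12.31 and 12.24 against 12.43 and 12.49, and at 11.08 and 10.81 against 11.11 and 11.16. Of 11 members 10 were tested, 5 below 0 and 5 above, with a median of -0.02 that became 0.03 after quantile normalization, and none reached an unadjusted p under 0.05 in limma. HSPA4, an Hsp110 that resets Hsp70, measured 10.51 and 10.43 on the miR-NT arrays against 10.40 and 9.77 on the miR-20a arrays. Only miR-20a replicate 2 stood clearly apart, and the log2 fold change of -0.39 (SE 0.19, limma adjusted p = 0.304) was -0.07 without that array. Its close relatives HSPA4L and HSPH1 were at -0.22 (SE 0.12) and -0.07 (SE 0.12). HSPA9, the mitochondrial Hsp70 mortalin, measured 11.79 and 11.73 against 11.59 and 11.49, with both miR-20a arrays the lower (log2 fold change -0.22, SE 0.10, limma adjusted p = 0.281). HSPA6, an Hsp70 that is strictly induced by stress, measured 6.08 and 6.00 on the miR-NT arrays against 6.11 and 6.04 on the miR-20a arrays, and these values overlapped. The testis form HSPA1L was at 0.12, the atypical HSPA12A and HSPA12B at 0.07 and -0.15, the reticulum protein HSPA13 at 0.04 and HSPA14, which acts at the ribosome with DNAJC2, at 0.06. HSPA2 was too dim to test, between 5.22 and 5.27 on all arrays.

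J-domain proteins of the A and B classes, which bind clients and bring them to Hsp70, were mostly below 0. All 3 tested DNAJA genes were below 0 with a median of -0.18, and 6 of 7 tested DNAJB genes were, with a median of -0.14. The untested probe set shared by DNAJB6 and TMEM135 measured 9.23 and 9.20 on the miR-NT arrays against 8.66 and 8.15 on the miR-20a arrays. DNAJB4, a cytosolic relative of DNAJB1 (203811_s_at), measured 7.09 and 6.90 on the miR-NT arrays against 6.42 and 6.29 on the miR-20a arrays. The pairs were far apart, and the miR-20a arrays differed from each other by only 0.13. The estimate stood at -0.64 (SE 0.11), a 1.56-fold lower signal (limma adjusted p = 0.094), and it stayed between -0.74 and -0.43 over all alternatives, the latter once the ACTB control entered as a covariate.

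DNAJB1, the main heat-inducible J-domain partner of Hsp70, measured 9.72 and 9.44 on the miR-NT arrays against 9.33 and 9.07 on the miR-20a arrays. The groups were separate, though the gap between them was smaller than the spread within each (log2 fold change -0.38, SE 0.14, limma adjusted p = 0.216). Once the ACTB control entered as a covariate, its value was at 0.04. DNAJB14, a J-domain protein of the reticulum membrane, was at -0.26 (SE 0.12) with separate groups, and its relative DNAJB12 at -0.08 with overlapping ones. DNAJB13, an axonemal protein, was at -0.14, DNAJB5 at -0.04 and the neuronal DNAJB2 at 0.06. In the A class DNAJA2 measured 9.59 and 9.40 against 9.38 and 9.01 (log2 fold change -0.30, SE 0.14, limma adjusted p = 0.297, or -0.11 without miR-20a replicate 2), DNAJA1 was at -0.13 and the mitochondrial DNAJA3 at -0.18. The medians of both classes turned once the ACTB control entered as a covariate, to 0.25 for DNAJA and 0.12 for DNAJB.

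DNAJC proteins share only the J domain and serve many compartments. Of 23 members 16 were tested, 9 below 0 and 7 above, with a median of -0.10 and a range from -0.30 to 0.22. DNAJC11, a protein of the mitochondrial inner membrane organising system, measured 7.87 and 7.78 on the miR-NT arrays against 7.60 and 7.48 on the miR-20a arrays. It was the only 1 of the 16 tested DNAJC genes at an unadjusted p under 0.05 in limma, where 13.2% of all tested genes were lower. Its log2 fold change was -0.28 (SE 0.10, limma adjusted p = 0.216), and its groups did not overlap. DNAJC4 (-0.30, SE 0.14) and DNAJC9, a chaperone of histones (-0.24, SE 0.11), came next among the lower values. DNAJC4 was at -0.10 without miR-NT replicate 1, and DNAJC9 at -0.15 without miR-20a replicate 2. DNAJC22 measured 7.07 and 6.99 against 7.25 and 7.24, the highest fold change of the class (0.22, SE 0.10, limma adjusted p = 0.275), followed by the splicing-associated DNAJC8 (0.15) and DNAJC7 (0.14). For the others the fold changes were -0.23 for DNAJC16, -0.21 for DNAJC5, the cysteine string protein of secretory vesicles, -0.17 for DNAJC13 of endosomes, -0.16 for DNAJC19 of the mitochondrial import motor, -0.11 for the ribosome-bound DNAJC2 and -0.09 for DNAJC15. They were 0.05 for DNAJC17, 0.05 for the mitochondrial DNAJC30, 0.08 for DNAJC18 and 0.12 for DNAJC1.

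The cytosolic chaperonin is built from 8 different subunits, of which TCP1 was not used for the reason given above. Of the untested probe sets shared by TCP1 and SNORA29, the brighter measured 12.60 and 12.57 on the miR-NT arrays against 12.50 and 12.26 on the miR-20a arrays. The dimmer went the other way, at 9.44 and 9.37 against 9.58 and 9.63. Of 9 members, which include the testis form CCT6B and the related CCT8L2, 8 were tested, 5 below 0 and 3 above, with a median of -0.03 that was 0.07 after quantile normalization and 0.06 without miR-NT replicate 1. CCT4 (227171_at) measured 7.32 and 7.21 on the miR-NT arrays against 6.88 and 6.80 on the miR-20a arrays, with each pair tight and the groups separate (log2 fold change -0.43, SE 0.10, limma adjusted p = 0.122). Its probe set lay at percentile 59.5 of mean level, while those of CCT2, CCT3, CCT5, CCT6A, CCT7 and CCT8 lay at 94.1 to 99.4. Whether it reads the main CCT4 transcript was not tested. CCT2 measured 10.81 and 10.45 against 10.33 and 10.17, separate but with miR-NT arrays that differed by 0.36 (log2 fold change -0.38, SE 0.14, limma adjusted p = 0.217). Both had an unadjusted p under 0.05 in limma, 2 of the 8 tested, where 13.2% of all tested genes were lower. CCT4 and CCT2 were negative in all 7 alternatives that can move them, coming as near 0 as -0.29 and -0.10. CCT2 was at -0.20 without miR-NT replicate 1.

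The other subunits were at or above their miR-NT level or just below it. CCT6A measured 12.02 and 11.92 on the miR-NT arrays against 12.24 and 12.10 on the miR-20a arrays, above on both arrays (log2 fold change 0.20, SE 0.10, limma adjusted p = 0.327). CCT3 was also above on both arrays, at 12.56 and 12.51 against 12.63 and 12.59 (log2 fold change 0.08, SE 0.10). CCT5 measured 12.74 and 12.69 against 12.67 and 12.51 (-0.12, SE 0.10), and turned to 0.01 after quantile normalization. CCT7 (11.99 and 11.87 against 11.96 and 11.90) and CCT8 (12.75 and 12.67 against 12.75 and 12.72) overlapped between the groups. CCT6B overlapped too, at -0.06 (SE 0.12).

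**Figure D3:**
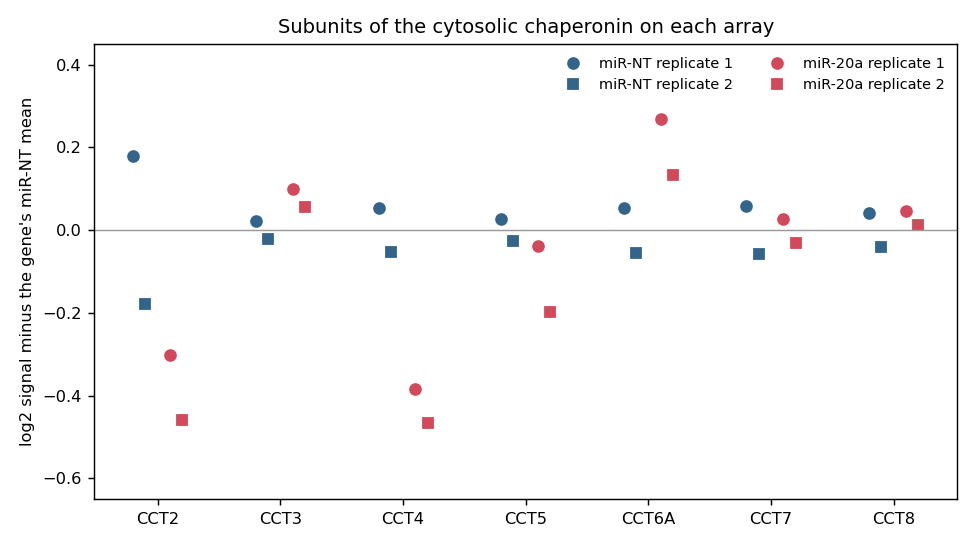
Log2 signal of 7 chaperonin subunits on each array, minus the gene's own miR-NT mean (y axis), with miR-NT arrays in blue, miR-20a arrays in red, circles for replicate 1 and squares for replicate 2. CCT2 and CCT4 lie below their miR-NT arrays, CCT3 and CCT6A above them, and CCT7 and CCT8 overlap with them.

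Partners of the chaperonin and its best known clients had fold changes on both sides of 0. Of 10 tested genes of prefoldin, which delivers clients to the chaperonin, and related partners, 7 were below 0 and 3 above, with a median of -0.05. URI1, a prefoldin-like protein, measured 8.50 and 8.41 on the miR-NT arrays against 8.03 and 7.68 on the miR-20a arrays (log2 fold change -0.60, SE 0.13, limma adjusted p = 0.112). PDCL, a phosducin-like partner of the chaperonin, measured 7.49 and 7.49 against 7.85 and 7.69, above on both arrays (0.28, SE 0.10, limma adjusted p = 0.22). Of 13 tested clients 8 were below 0 and 5 above, with a median of -0.04. TUBB, a beta tubulin, was at -0.27 (SE 0.10, limma adjusted p = 0.22) and TUBA1A, an alpha tubulin, at 0.27 (SE 0.10, limma adjusted p = 0.219).

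The mitochondrial chaperonin HSPD1 (Hsp60) and its lid HSPE1 (Hsp10) differed from each other. HSPD1 (200806_s_at) measured 12.41 and 12.27 on the miR-NT arrays against 11.77 and 11.37 on the miR-20a arrays. Both miR-20a arrays were below both miR-NT arrays, and the difference on the log2 scale was -0.77 (SE 0.14), a 1.70-fold lower signal (limma adjusted p = 0.0963). It was negative in all 7 alternatives that can move it and came nearest to 0, at -0.16, once the ACTB control entered as a covariate. HSPE1 (205133_s_at) measured 12.53 and 12.53 on the miR-NT arrays against 12.54 and 12.34 on the miR-20a arrays, so that the groups overlapped (log2 fold change -0.09, SE 0.11, limma adjusted p = 0.632). The signal of HSPD1 minus that of HSPE1 on the same array was -0.12 and -0.26 under miR-NT, and -0.77 and -0.96 under miR-20a, a shift of -0.68 without overlap (two-sided exact permutation p = 0.333, the smallest that 2 arrays against 2 allow). The pair was compared after the values were seen.

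HSPD1 and HSPE1 are neighbours that are read in opposite directions from 1 stretch of DNA, which is shown because 1 promoter region serves both a gene with a lower signal and a gene whose groups overlapped. In RefSeq's GRCh38.p14 table the first base of HSPE1 is at position 197500379 on the plus strand of chromosome 2 and that of HSPD1 at 197500274 on the minus strand, 105 bases apart. The window below is chr2:197500129-197500428, read along the plus strand toward HSPE1, and the capitals mark the bases from the start of HSPD1 to the start of HSPE1.
HSPE1: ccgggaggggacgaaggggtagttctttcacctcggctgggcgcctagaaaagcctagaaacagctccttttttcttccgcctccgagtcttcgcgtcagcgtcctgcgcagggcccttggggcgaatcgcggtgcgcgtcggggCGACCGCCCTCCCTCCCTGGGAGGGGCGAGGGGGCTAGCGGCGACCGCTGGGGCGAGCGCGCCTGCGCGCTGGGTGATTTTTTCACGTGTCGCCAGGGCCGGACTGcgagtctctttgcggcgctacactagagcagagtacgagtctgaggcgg

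Of the other mitochondrial folding genes and proteases, 10 were tested. Of these, 4 were below 0 and 6 above, with a median of 0.04. TIMM44, the membrane anchor of the import motor, measured 8.12 and 7.92 on the miR-NT arrays against 7.72 and 7.30 on the miR-20a arrays (log2 fold change -0.51, SE 0.15, limma adjusted p = 0.17), and it was at -0.30 without miR-20a replicate 2. The inner-membrane protease AFG3L2 was above on both arrays, at 11.48 and 11.57 against 11.75 and 11.94 (0.32, SE 0.11, limma adjusted p = 0.203). The mitochondrial Hsp90 TRAP1 was at 0.16 (SE 0.10).

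BAG proteins reset Hsp70 and steer its clients, and 4 of the 6 were below 0 with a median of -0.18. BAG2, which holds back the ubiquitin ligase STUB1 (209406_at), measured 9.06 and 8.87 on the miR-NT arrays against 8.45 and 7.88 on the miR-20a arrays. The groups did not overlap, and the miR-20a arrays differed by 0.57, lower on replicate 2 as the 5' controls were. The estimate stood at -0.80 (SE 0.18), a 1.74-fold lower signal (limma adjusted p = 0.116), was -0.51 without miR-20a replicate 2, and turned to 0.07 once the ACTB control entered as a covariate. BAG1 measured 8.59 and 8.67 against 8.47 and 8.15 (log2 fold change -0.32, SE 0.13, limma adjusted p = 0.245), and was at -0.15 without miR-20a replicate 2.

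BAG3, a stress-induced co-chaperone that takes clients to autophagy, measured 10.99 and 10.87 on the miR-NT arrays against 11.02 and 10.94 on the miR-20a arrays, and the groups overlapped (log2 fold change 0.05, SE 0.10). BAG4 was at -0.20, or -0.036 without miR-20a replicate 2, and BAG6, which guards membrane proteins on their way to the reticulum, at -0.15. BAG5 was near the lower limit of testing, at 5.47 and 5.52 against 5.63 and 5.53 (0.09, SE 0.10).

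Among the small heat shock proteins, which hold unfolded clients without ATP, 4 of 7 were tested, 2 below 0 and 2 above. HSPB6 (Hsp20) was the 1 member higher at an unadjusted p under 0.05 in limma. It measured 6.08 and 6.16 on the miR-NT arrays against 6.26 and 6.67 on the miR-20a arrays, a dim signal whose highest value was on miR-20a replicate 2 (log2 fold change 0.34, SE 0.14, or 1.27-fold higher, limma adjusted p = 0.256). It was 0.14 without that array and -0.27 once the ACTB control entered as a covariate. HSPB1 (Hsp27), the abundant small heat shock protein of many tumours, measured 13.46 and 13.47 against 13.52 and 13.38, and the groups overlapped (log2 fold change -0.01, SE 0.10). HSPB8, which works with BAG3, measured 9.36 and 9.18 against 9.31 and 8.80, with overlap (-0.21, SE 0.17). The muscle protein HSPB3 was at 0.11.

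Of the heat shock factors, HSF1 measured 6.09 and 5.90 on the miR-NT arrays against 5.72 and 5.86 on the miR-20a arrays. Both miR-20a arrays were below by a narrow margin, in a dim signal (log2 fold change -0.20, SE 0.11, limma adjusted p = 0.346), and miR-20a replicate 2 was the higher of its pair, unlike the 5' controls. HSF4, the lens form, overlapped between the groups at -0.07 (SE 0.10). HSF2 was not analysed here.

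HSF1 binds heat shock elements, arrays of the unit GAA in alternating orientation, and the promoter windows of the members were searched for them. RefSeq's GRCh38.p14 table held a window, from 250 bases before to 50 after the gene's first base, for 67 of the 76 members. An array of 3 units, GAANNTTC followed at once by NNGAA, on either strand, was present in 2 members (2.99%), DNAJA1 and HSPA6, and in 0.487% of all 27305 windows. The shorter forms GAANNTTC or TTCNNGAA, each of which reads the same on both strands and which the longer form contains, were present in 13 members (19.4%), in 13.7% of all windows and in 10.5% of those of the tested genes. The 12 tested members with such a match had a median fold change of -0.08, 8 below 0 and 4 above, ranging from -0.80 to 0.34. The 42 tested members without one had a median of -0.13, 30 below 0 and 12 above, ranging from -1.30 to 0.15. HSP90AB1, STIP1, HSPD1, DNAJB4 and DNAJB1 were among those without a match in this window.

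The windows of 4 members are shown, with the shorter forms in capitals: BAG2 and HSPB6 because they were the lowest and the highest of the members with a match, and DNAJA1 and HSPA6 because they hold the array of 3 units, where matches overlap. The BAG2 window is chr6:57172076-57172375 on the plus strand, that of HSPB6 chr19:35756980-35757279 on the minus strand, that of DNAJA1 chr9:33025023-33025322 and that of HSPA6 chr1:161524290-161524589, both on the plus strand, all from GRCh38.p14. A match of letters is a description and not a site.
BAG2: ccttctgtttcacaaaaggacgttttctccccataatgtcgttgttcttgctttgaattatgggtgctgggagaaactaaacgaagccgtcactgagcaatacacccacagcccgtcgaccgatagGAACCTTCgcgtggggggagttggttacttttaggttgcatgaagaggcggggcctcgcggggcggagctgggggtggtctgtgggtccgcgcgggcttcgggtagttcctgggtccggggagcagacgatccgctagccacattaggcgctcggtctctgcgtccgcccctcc
HSPB6: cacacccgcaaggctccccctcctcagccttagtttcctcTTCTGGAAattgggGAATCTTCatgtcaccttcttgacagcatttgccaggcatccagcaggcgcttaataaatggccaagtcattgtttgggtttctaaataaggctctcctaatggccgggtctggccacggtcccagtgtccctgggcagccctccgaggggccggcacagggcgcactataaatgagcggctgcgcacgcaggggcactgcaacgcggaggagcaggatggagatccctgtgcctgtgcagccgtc
DNAJA1: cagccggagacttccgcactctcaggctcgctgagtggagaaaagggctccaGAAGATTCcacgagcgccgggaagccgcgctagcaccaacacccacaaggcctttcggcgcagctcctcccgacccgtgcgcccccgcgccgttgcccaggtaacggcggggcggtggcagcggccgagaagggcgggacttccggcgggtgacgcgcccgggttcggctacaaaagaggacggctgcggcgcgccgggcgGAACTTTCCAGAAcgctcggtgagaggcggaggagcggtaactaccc
HSPA6: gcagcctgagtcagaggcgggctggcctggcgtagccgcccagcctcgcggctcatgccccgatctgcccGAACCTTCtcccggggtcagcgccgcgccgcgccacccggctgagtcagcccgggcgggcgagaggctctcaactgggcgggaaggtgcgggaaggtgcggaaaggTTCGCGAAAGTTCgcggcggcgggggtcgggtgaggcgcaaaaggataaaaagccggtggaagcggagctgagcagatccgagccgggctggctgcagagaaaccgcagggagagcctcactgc

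The members left out as dim were 15: CCT8L2, DNAJA4, DNAJB7, DNAJB8, DNAJC6, DNAJC12, DNAJC14, DNAJC21, DNAJC24, DNAJC27, DNAJC28, HSPA2, HSPB2, HSPB7 and HSPB9. Their signals lay between 3.14 and 5.63. Without the filter DNAJC14 was the widest apart of them, at 5.63 and 5.44 on the miR-NT arrays against 4.94 and 4.67 on the miR-20a arrays.

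Within the miR-20a pair, 48 of the 61 tested members were lower on replicate 2, the array with the weaker 5' controls, and 13 were higher, with a median difference of -0.12. Of all tested genes 7309 were lower there and 5067 higher, with a median of -0.04. Replicate 2 was also the lower array of the miR-NT pair in 45 members and the higher in 16, with a median of -0.10 beside -0.06 for all tested genes. The 5' controls of that pair differed by -0.11 and -0.08. The miR-20a difference, replicate 2 minus replicate 1, was -1.04 for HSP90AB1, -0.62 for HSPA4, -0.57 for BAG2, -0.52 for HSPB8, -0.42 for STIP1 and -0.40 for HSPD1. It was small for DNAJB4 and CCT4, at -0.13 and -0.08, whose fold changes were among the lower ones. Both quantities contain the miR-20a arrays, so that they are linked even where no gene differs.

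**Figure D4:**
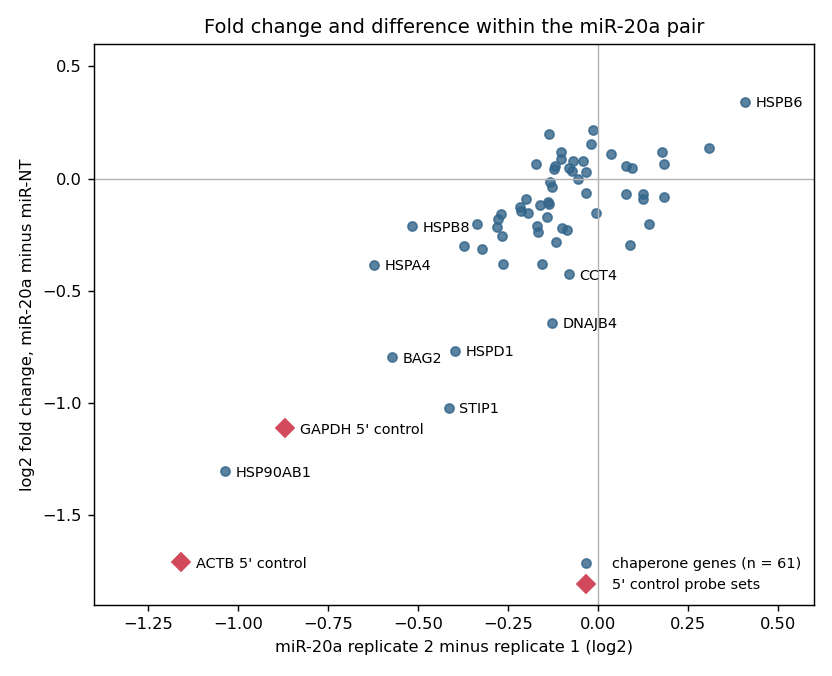
Log2 fold change (y axis, miR-20a minus miR-NT) against the difference between the miR-20a arrays (x axis, replicate 2 minus replicate 1, log2) for the 61 tested chaperone genes (blue) and the ACTB and GAPDH 5' control probe sets (red). HSP90AB1, at -1.04 and -1.30, lies nearest the controls, while DNAJB4 and CCT4 lie low with a small difference within the pair.

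Chaperones of the endoplasmic reticulum, which the choice of members left out, are given for comparison. Of 14 tested 10 were below 0 and 4 above, with a median of -0.39, and 9 (64.3%, beside 13.2% of all tested genes) were lower at an unadjusted p under 0.05 in limma while none passed over all genes. P4HB, a disulfide isomerase, had the lowest p of them. It measured 9.53 and 9.29 on the miR-NT arrays against 7.81 and 6.16 on the miR-20a arrays (log2 fold change -2.42, SE 0.44, limma adjusted p = 0.0949), and it was at -1.60 without miR-20a replicate 2. CALR measured 10.50 and 10.41 on the miR-NT arrays against 9.96 and 9.81 on the miR-20a arrays (log2 fold change -0.57, SE 0.10, limma adjusted p = 0.0949), and the lectin chaperone CANX was at -0.58 (SE 0.13). The reticulum's Hsp70 HSPA5 and Hsp90 HSP90B1 were above on both arrays, each at 0.21. Ubiquitin and degradation partners had a median of -0.14 over 9 tested genes, 6 below 0 and 3 above, none at an unadjusted p under 0.05 in limma or past the threshold over all genes, with the segregase VCP lowest by p at -0.33 (SE 0.15, or -0.13 without miR-20a replicate 2) and the ubiquitin ligase UBE3A at -0.27 (SE 0.12, or -0.16 without it).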

How the data were processed

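Total RNA of Hs683 cells was hybridised to 4 Affymetrix arrays, 2 per group, grouped by source name. The authors deposited log2 expression values for 20323 probe sets, the scale being judged from their range. Of software, the submitters' notes on processing list affy, without its version. How background, normalization and summarisation were done is not given here, and precision is limited by the number of arrays.

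The platform annotation gave 18060 probe sets 1 gene symbol, for 17716 genes. No member had more than 1 such probe set. The model (limma 3.58.1 under R 4.3.3, lmFit then eBayes) had no covariate, and two-sided p-values were adjusted by Benjamini-Hochberg over 12401 genes with a threshold of 0.05. It had 2 residual and 5.53 prior degrees of freedom, gave the SE values, and was checked on simulated data. Promoter and microRNA sequences are RefSeq's.

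The text names all chaperonin subunits, HSPD1, HSPE1, HSP90AA1, HSP90AB1, STIP1, HSPA9, HSPH1, DNAJB1 and HSF1, every family's 3 smallest p-values in each direction, and the 2 smallest of every partner list. All other genes were named after their values were seen. The members and lists were chosen with earlier results of these data known. Alternatives covered normalization, the dim filter, the prior, the probe set, the replicate block, the ACTB covariate and each array left out.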

Additional observations from a re-analysis of the deposited data

How the results depend on the processing

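Of 12 alternatives, 7 can move a fold change, and in all 7 of them 21 of the 61 tested members kept its sign, among them STIP1, HSPD1, DNAJB4, CCT2 and CCT4. A fit that leaves out 1 array assumes that the lone array varies like the other group. The shares of all tested genes that passed in such fits, given in part above, rose and fell as well. The ranges of member counts given next are therefore not a property of the chaperones alone. In such fits the number of members called ranged from 0 to 14, of members lower at an unadjusted p under 0.05 from 6 to 21 and of members higher from 0 to 2. Medians ranged from -0.12 to 0.041 for HSPA, -0.10 to 0.063 for CCT, -0.25 to -0.12 for DNAJB and -0.13 to -0.034 for DNAJC. The sign turned in 18 members, whose fold changes ranged as follows: BAG3 -0.0095 to 0.11, CCT6B -0.21 to 0.083, CCT7 -0.059 to 0.056, CCT8 -0.011 to 0.071, DNAJB12 -0.23 to 0.066, DNAJB2 -0.0028 to 0.12, DNAJB5 -0.14 to 0.064, DNAJC17 -0.16 to 0.25, DNAJC30 -0.0048 to 0.11, DNAJC7 -0.019 to 0.29, HSPA12A -0.021 to 0.15, HSPA13 -0.045 to 0.13, HSPA14 -0.027 to 0.16, HSPA6 -0.0049 to 0.069, HSPB1 -0.080 to 0.054, HSPB8 -0.47 to 0.046, HSPE1 -0.19 to 0.011 and HSPH1 -0.20 to 0.063.

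With median centring 1 member was called lower (1.64%), beside 0.363% of all tested genes called lower and 0.0161% higher. With the intensity trend and robust prior it was also 1 (1.64%), beside 0.185% lower and 0.00806% higher. The member was STIP1 in both, and other fits on all 4 arrays called 0. Quantile normalization put 3 members (4.92%, beside 12.8% of all tested genes) higher at an unadjusted p under 0.05, with medians of 0.027 for all tested genes, 0.032 for HSPA, -0.032 for DNAJC and 0.068 for CCT. It turned 7 members: CCT5 0.0087, CCT7 0.13, DNAJC2 0.0061, HSP90AA1 0.022, HSPH1 0.031, HSPB1 0.071 and HSPE1 0.036. CCT7 was 0.0022 after median centring. Without the dim filter, where more genes were tested, medians were 0.029 for HSPA and -0.013 for HSPB. With the lowest 50% left out, where fewer were tested, 0 members were higher at an unadjusted p under 0.05, where 5.28% of genes were, and medians were -0.14 for HSPA, -0.11 for HSPB and -0.071 for HSF.

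The labels do not say that equal replicate numbers mark a shared culture or day. Across the tested genes, which are not independent replicates, the replicate 2 minus replicate 1 differences of both groups had a Pearson's r of 0.267. With the replicate block 14 members (23.0%, beside 17.2% of all tested genes) were lower and 3 (4.92%, beside 8.26%) higher at an unadjusted p under 0.05.

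Once the ACTB control entered as a covariate, which leaves fewer degrees of freedom, 0 members were lower, where 3.46% of all tested genes were, and 2 (3.28%, beside 3.36%) higher at an unadjusted p under 0.05. That fit gave every member the same SE, 0.25, and took its slope almost wholly from the miR-20a pair, so the sign turns below largely restate the difference within that pair. Medians were 0.047 for all tested genes, 0.097 for all members, 0.18 for HSPA, 0.25 for DNAJA, 0.12 for DNAJB, -0.002 for DNAJC, 0.098 for the Hsp90 group, 0.094 for CCT, 0.020 for HSPD1 with HSPE1, 0.16 for BAG and -0.29 for HSF. The sign turned in 32 members. Positive were BAG1 0.14, BAG2 0.07, BAG4 0.32, BAG6 0.14, CCT5 0.13, CCT6B 0.028, CCT7 0.097, DNAJA1 0.19, DNAJA2 0.27, DNAJA3 0.25, DNAJB1 0.044, DNAJB13 0.16, DNAJB14 0.14, DNAJB5 0.12, DNAJC13 0.033, DNAJC19 0.26, DNAJC2 0.083, DNAJC5 0.067, DNAJC9 0.031, HSP90AA1 0.098, HSP90AB1 0.22, HSPA4 0.54, HSPA4L 0.22, HSPB1 0.18, HSPB8 0.57 and HSPE1 0.20. Negative were DNAJC1 -0.11, DNAJC17 -0.035, DNAJC30 -0.073, DNAJC7 -0.30, HSPA14 -0.22 and HSPB6 -0.27. The differences of partner-list genes with 1 array left out were added after seeing the data. Where no construction is named, the cause was not tested.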
